A study of Mus musculus with 6 samples.

Results

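The genes described here code for the proteasome, its regulatory particles and its assembly factors. They were chosen by name: every probe on the array that is not a control and whose gene name begins with Psma, Psmb, Psmc, Psmd, Psme, Psmf or Psmg followed by a digit. This took in 77 of 41174 probes and 49 gene names, of which 48 are proteasome genes. The remaining name, Psmc3ip, belongs to a recombination cofactor that is no part of the proteasome, and it was left out of the group values. The study took RNA from mouse CD4 T cells of the spleen, resting, either given VIP (vasoactive intestinal peptide) or left untreated, and hybridised it to 6 two-colour arrays, each carrying both treatments. The cells came from C57BL/6J mice, males and females of 6 to 32 weeks, and each sample pooled 5 to 10 spleens, from which CD4 cells were taken with antibody-coated magnetic beads. Both treatments therefore share the same bead purification and the resting state, and differ in the peptide. VIP dose and exposure time were not given in the sources used here. VIP was in the Cy5 (red) channel on replicates 1, 3 and 5 and in the Cy3 (green) channel on replicates 2, 4 and 6. The labels call the 6 arrays biological replicates. Replicates 1 and 2, 3 and 4, and 5 and 6 shared slides 1, 2 and 3, so every slide holds both dye orientations.

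The proteasome is the main protease for ubiquitin-tagged proteins in the cytosol and nucleus. Its barrel, the 20S core, is built from rings of alpha (Psma) and beta (Psmb) subunits, with the catalytic sites on 3 of the beta subunits. A 19S cap recognises and unfolds substrates with a ring of ATPases (Psmc) and a set of non-ATPase subunits (Psmd), while the activators (Psme) open the core without ATP. Lymphoid cells carry much of their core as the immunoproteasome, in which Psmb8, Psmb9 and Psmb10 replace Psmb5, Psmb6 and Psmb7. Interferon gamma induces these subunits together with Psme1 and Psme2. VIP is a neuropeptide whose receptors on T cells raise cyclic AMP.

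Of the 77 probes, 72 passed a signal minimum (well above background in either treatment on 3 or more arrays), and 68 of those also had usable spots on 2 or more arrays in each dye orientation. They gave 48 genes with a value, each represented by its brightest such probe, and 41 of these were measured on all 6 arrays. No probe of the family was saturated. All 8 CD4 T-cell markers examined were well above background on every array. So were all 6 B-cell markers and all 6 macrophage and monocyte markers in at least 1 treatment, and the part of other splenic cells in the results was not tested. The log2 sum of the B-cell markers was 12.9 to 14.0 with VIP and 13.1 to 14.1 without. That of the macrophage and monocyte markers was 9.74 to 10.6 with VIP and 9.65 to 10.5 without. These sums took only markers measured on all 6 arrays. They left out Lyz2, measured on 5 arrays and the brightest macrophage and monocyte marker, at a median log2 of 14.7 with VIP and 14.5 without. The only marker that passed the test was Thy1, a T-cell surface protein, which fell (log2 ratio -0.29 ± 0.053 SE, n = 6 arrays, limma adjusted p = 0.0149). On replicates 1 to 6 it read -0.32, -0.21, -0.45, -0.36, -0.44 and 0.021. Of the 7 CD4 T-cell markers tested, 3 were positive, and the median ratio was -0.071. The T-cell receptor chains Cd3d (-0.13, limma unadjusted p = 0.00739) and Cd3g (-0.15, limma unadjusted p = 0.00589) were negative on all 3 slides, whereas Cd3e was at 0.025 and Cd4 at 0.012. Cd14 of macrophages (0.18, limma unadjusted p = 0.00479) was positive on all 3 slides. So was Cd8b1 of CD8 T cells (0.13, limma unadjusted p = 0.0228). Of the 6 macrophage and monocyte markers 4 were positive, and of the 6 B-cell markers 2. CD8 T, NK and erythroid markers also gave signal, up to a median log2 of 12.4 (Cd8b1), 11.6 (Klrd1) and 11.7 (Hba-a1) with VIP. In such bulk RNA, fewer cells of a type and less RNA per cell cannot be told apart.

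VIP moved no proteasome gene past the test. By limma, 0 of the 48 genes with a value were called at an adjusted p of 0.05, against 593 of 19225 genes, or 3.08 percent, over the whole array. At an unadjusted p under 0.05 there were 6 of the family, 12.5 percent of it, against a background of 16.7 percent. These were the cap genes Psmc4, Psmc6 and Psmd1 and the activator gene Psme4, with positive ratios, and the activator genes Psme1 and Psme2, with negative ones. The 47 proteasome genes with a value had fitted log2 ratios of VIP over untreated between -0.23 (Psme2) and 0.13 (Psmd1). In 40 of the 47 the fitted ratio was smaller than 0.1 in size. Small ratios were common on the whole array: the median size was 0.045 in the family and 0.048 over all genes tested. The levels in the VIP and untreated channels overlapped for all 47, which says little, since they did so for 99.8 percent of all genes tested.

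The limits on each gene were narrow. The median standard error was 0.046 on the log2 scale. The 95% interval furthest from no change was that of Psme2, which reached down to -0.39, a 1.31-fold difference. The next furthest was that of Psmc5, an ATPase of the cap, which reached up to 0.29, a 1.22-fold difference. For the other proteasome genes measured, apart from Psmd11, any change of the mean larger than that lay outside the interval. The interval of Psmd11 came from a probe of the opposite strand and sets no limit on its mRNA.

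**Figure D1:**
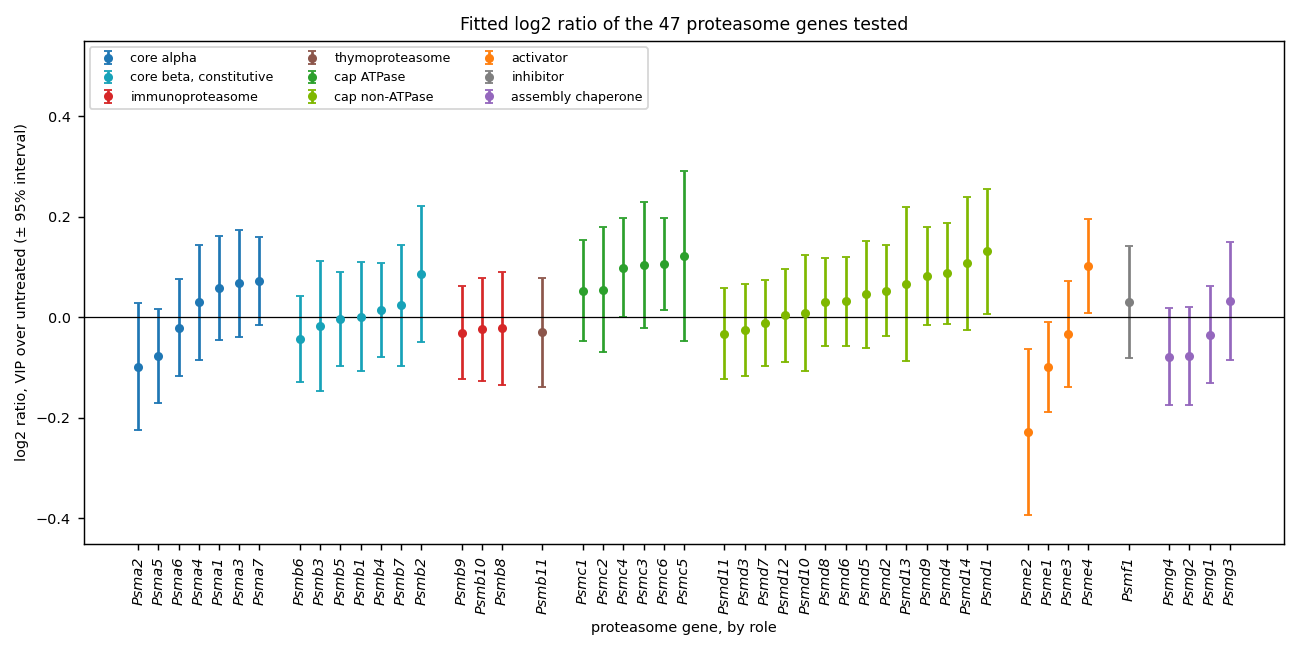
Fitted log2 ratio of VIP over untreated (vertical axis) for the 47 proteasome genes tested, grouped and coloured by role; points are limma estimates over up to 6 arrays and bars are 95% intervals. Values run from -0.23 for Psme2 to 0.13 for Psmd1, and the 6 genes of the cap ATPase ring all lie above 0.

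Role medians ran from -0.066 for the activators to 0.10 for the cap ATPases, around an array-wide median of -0.0047. The 18 measured genes of the 20S core had a median log2 ratio of -0.011, and 8 of them were positive; this median changed sign under several settings, reaching 0.010 without replicate 2. The 20 genes of the 19S cap named Psmc or Psmd had a median of 0.054. Of these, 17, or 85.0 percent, were positive, whereas 47.1 percent of all genes tested were positive. They include the base chaperones Psmd5, Psmd9 and Psmd10, and Psmd11 by a probe of the opposite strand. Sem1 and Adrm1, cap subunits outside the naming rule, were negative, at -0.14 (limma unadjusted p = 0.0406) and -0.026. The core and the cap are read here by these counts only, as descriptions. The median of the cap differed among slides, at -0.0028 on slide 1, 0.080 on slide 2 and 0.075 on slide 3. Without replicate 2 it was 0.090, and over all removals of 1 array it ranged from 0.043 to 0.090.

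**Figure D2:**
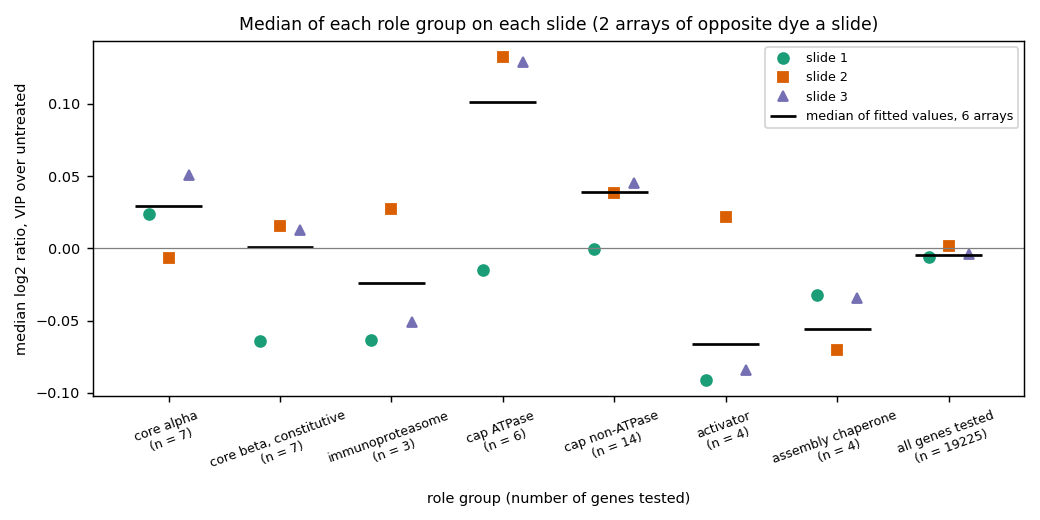
Median log2 ratio of VIP over untreated (vertical axis) of each role group on slides 1, 2 and 3 (symbols; each slide averages 2 arrays of opposite dye) and over the fitted values (black bars), beside all 19225 genes tested. The cap ATPases had a median of 0.10 overall but -0.015 on slide 1, and the assembly chaperones lay below 0 on all 3 slides.

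The alpha subunits form the outer rings of the core and hold its gate. Of 8 named genes, 7 were measured, 4 with positive and 3 with negative ratios (median 0.029, range -0.098 to 0.072), and 0 were called. Psma7, which had the lowest unadjusted p of the group, read -0.16, 0.29, -0.18, 0.32, -0.22 and 0.38 on replicates 1 to 6. The sign followed the dye on every array: positive with VIP in Cy3 and negative with VIP in Cy5. With the fitted dye effect taken out, all 6 arrays were positive, the 3 slides read 0.068, 0.070 and 0.079, and the fitted ratio was 0.072 ± 0.039 (SE, n = 6; limma adjusted p = 0.403). The dye effect of a gene was fitted on these same arrays. Removing it makes each dye orientation average the fitted ratio. Counts of arrays by sign after removal, here and below, are therefore partly set by the fit. Psma5 went the other way, at -0.16, -0.034, 0.018, -0.080, -0.050 and -0.16 on replicates 1 to 6, with only replicate 3 above 0. Its fitted ratio was -0.077 ± 0.042 (SE, n = 6; limma adjusted p = 0.414), but -0.025 from the scanner's own processed signals and -0.15 with median centring in place of loess. The other measured alpha subunits were Psma1 (0.059), Psma2 (-0.098, on 5 arrays), Psma3 (0.068), Psma4 (0.029) and Psma6 (-0.021). Psma8, the alpha subunit of germ cells, was not well above background on any array in either treatment and was not tested.

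The constitutive beta subunits include the 3 catalytic ones, Psmb5 (chymotrypsin-like), Psmb6 (caspase-like) and Psmb7 (trypsin-like). Of 7 genes measured, 4 were positive and 3 negative, around a median of 0.0012, and none passed the limma test. Psmb5 read -0.040, 0.058, -0.12, 0.15, -0.22 and 0.15 on replicates 1 to 6, again by dye, and its fitted ratio was -0.0039 ± 0.042 (SE, n = 6; limma adjusted p = 0.98). Psmb6 read -0.18, 0.031, -0.13, 0.077, -0.13 and 0.076. Without the dye effect it was below 0 on all 6 arrays, but only slightly, and its fitted ratio was -0.043 ± 0.038 (SE, n = 6; limma adjusted p = 0.646). Psmb7 read 0.031, -0.17, -0.075, 0.11, 0.010 and 0.24, with a fitted ratio of 0.024 ± 0.054 (SE, n = 6; limma adjusted p = 0.886). Its slides disagreed in sign, at -0.071, 0.019 and 0.12.

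The largest ratio among the constitutive beta subunits belonged to Psmb2, a structural subunit without a catalytic site. It read 0.21, 0.089, 0.36, -0.24 and 0.16 on replicates 1 to 5 and was not measured on replicate 6. Only replicate 4 was below 0, and the fitted ratio was 0.087 ± 0.060 (SE, n = 5 arrays; limma adjusted p = 0.53). Psmb1 (0.0012), Psmb3 (-0.017, on 4 arrays) and Psmb4 (0.014), which complete the ring, were nearer 0. The dimmer probe of Psmb3 gave 0.085, so its probes disagreed in sign.

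The inducible subunits of the immunoproteasome all had ratios just below 0, although that of Psmb8 was 0.038 from the scanner's own processed signals. Psmb8 (LMP7), which takes the place of Psmb5, read 0.15, 0.068, -0.038, 0.051 and -0.23 on replicates 1, 3, 4, 5 and 6, with a fitted ratio of -0.022 ± 0.050 (SE, n = 5 arrays; limma adjusted p = 0.888). A second Psmb8 probe, measured on all 6 arrays, gave 0.013. Psmb9 (LMP2), the counterpart of Psmb6, read 0.11, -0.27, 0.14, -0.077, 0.076 and -0.17, with a fitted ratio of -0.031 ± 0.042 (SE, n = 6; limma adjusted p = 0.785). Psmb10 (MECL-1), the counterpart of Psmb7, read -0.0021, -0.093, 0.017, 0.038, 0.12 and -0.23, with a fitted ratio of -0.024 ± 0.046 (SE, n = 6; limma adjusted p = 0.863). As measured, the group median split by dye, at 0.11, 0.068 and 0.076 with VIP in Cy5 and -0.18, -0.038 and -0.23 with VIP in Cy3. With the dye effect removed it was positive only on replicate 4, at 0.074, against -0.12 to -0.028 on the other arrays, and only on slide 2 (slides -0.063, 0.027 and -0.051). Over the 3 genes the 95% intervals ran from -0.13 to 0.090.

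**Figure D3:**
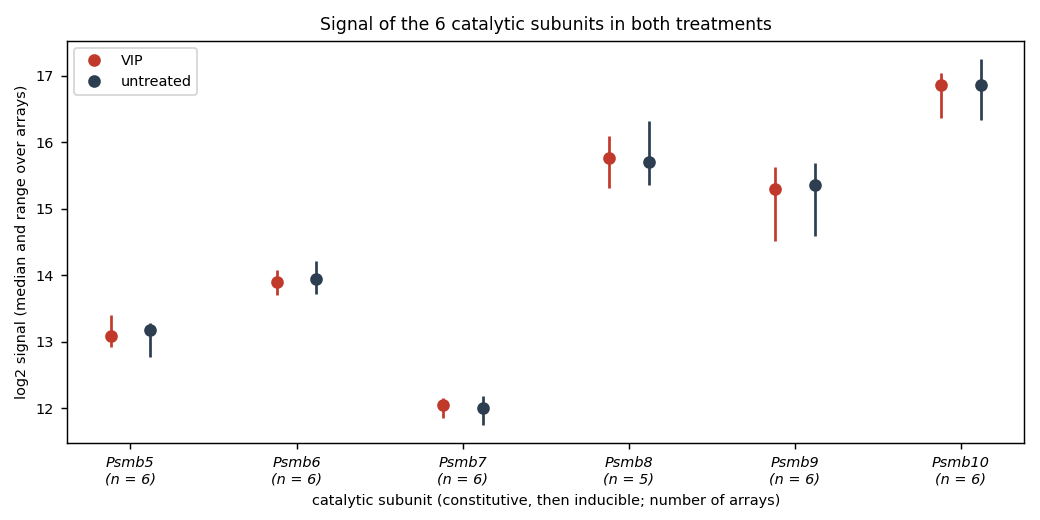
Normalised log2 signal (vertical axis; point, median; line, lowest to highest array) of the 6 catalytic subunits with VIP (red) and untreated (dark), for the number of arrays given under each name. The lines of the 2 treatments overlap for all 6 subunits, as for 99.8 percent of all genes tested; signals of different probes are not comparable as transcript levels.

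A shift of mRNA from constitutive to inducible subunits would show as a difference between the members of a pair on the same array. Exchange of the subunits in the particle itself was not measured. The log2 ratio of Psmb8 minus that of Psmb5 averaged 0.017 ± 0.29 (SD, n = 5 arrays; two-sided exact sign-flip permutation p = 0.938, where 5 arrays allow no p below 0.0625). These were 3 arrays with VIP in Cy5 and 2 with VIP in Cy3, so the dye did not cancel in this mean. With the fitted dye effect removed it was -0.030 (exact sign-flip permutation p = 0.438, n = 5), and it was -0.00069 on slide 2 and -0.053 on slide 3. For Psmb9 minus Psmb6 it averaged 0.012 ± 0.27 (SD, n = 6; exact sign-flip permutation p = 0.906, smallest possible 0.03125). For Psmb10 minus Psmb7 it averaged -0.048 ± 0.22 (SD, n = 6; exact sign-flip permutation p = 0.844). After Benjamini-Hochberg adjustment over these 3 comparisons, all 3 exact permutation p-values were 0.938. For the first and second of these pairs every array's sign followed the dye: the Psmb8 and Psmb9 probes were brighter in Cy5 and the Psmb5 and Psmb6 probes in Cy3. The SDs and the permutation p-values of values as measured hold this dye effect, so these tests could miss a small change with VIP. Averaged over the 2 arrays of a slide, Psmb9 minus Psmb6 was -0.0045, 0.059 and -0.018, with no common sign. Psmb10 minus Psmb7 was 0.024, 0.0087 and -0.18, and replicate 6, at -0.47, lay furthest from 0. Without replicate 6 the mean of this pair was 0.036.

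Because members of a pair are related genes, probes of Psmb5 and Psmb8 are shown here with their sequences. The Psmb8 probe shown is the second one, which took no part in the pair difference above. The Psmb5 probe (mm9, chr14:55233161-55233220, minus strand) and the second Psmb8 probe (mm9, chr17:34337771-34337830, plus strand) can be aligned with each other. The longest run of identical bases in both is in capitals.
Psmb5: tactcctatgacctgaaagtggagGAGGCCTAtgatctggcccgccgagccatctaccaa
Psmb8: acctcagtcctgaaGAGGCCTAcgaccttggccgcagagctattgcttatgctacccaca
The shared run was 8 bases long, and at the best ungapped alignment 31 of 50 overlapping bases were identical. Among all 2740 pairs of probes for different proteasome genes, the longest identical run was 12 of the 60 bases of a probe.

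The thymoproteasome subunit Psmb11, which is made in the cortical epithelium of the thymus, gave only dim signal. In each treatment, 4 of the 6 arrays put its tested probe well above background, while the other Psmb11 probe reached that on 1 array with VIP and 0 untreated. It read -0.0018, 0.083, -0.020, -0.13 and -0.043 on replicates 1, 2, 4, 5 and 6. The fitted ratio was -0.030 ± 0.049 (SE, n = 5 arrays; limma unadjusted p = 0.549). At this dim signal its size depended on the processing: it was -0.082 with a background-correction offset of 0 and -0.12 from the scanner's own processed signals.

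In the 19S cap, the 6 ATPases that form its unfolding ring all had positive ratios, from 0.053 (Psmc1) to 0.12 (Psmc5), with a median of 0.10. None of them passed the limma test. All 6 were positive under each normalisation tried, and 5 of 6 with the mean of a gene's probes and without replicate 1 or replicate 5. Without replicate 4 the median was 0.065, and over all removals of 1 array it ranged from 0.065 to 0.11. With the dye effect removed, the median of the ring was 0.11, -0.091, 0.098, 0.16, 0.063 and 0.20 on replicates 1 to 6. Replicate 2 was the only array below 0, and it put the median of slide 1 at -0.015 against 0.13 on both of the other slides. Psmc6 was positive on all slides, at 0.15, 0.052 and 0.11, from array values of 0.0031, 0.31, -0.049, 0.15, -0.073 and 0.30. Its fitted ratio was 0.11 ± 0.041 (SE, n = 6; limma unadjusted p = 0.0271, adjusted p = 0.225). A second Psmc6 probe gave 0.10, so here both probes read alike. Psmc4 read 0.16, -0.053, 0.14, 0.12, 0.058 and 0.16, with 5 of 6 arrays positive and a fitted ratio of 0.099 ± 0.044 (SE, n = 6; limma unadjusted p = 0.0475, adjusted p = 0.292). Its dimmer probe gave 0.026, and the mean of both probes 0.062. Psmc3 (0.10), Psmc2 (0.055, on 5 arrays) and Psmc1 had intervals that included 0, and the dimmer probe of Psmc2 gave -0.076. Psmc5 had the widest interval of the ring, -0.048 to 0.29, and its arrays ran from -0.12 to 0.61.

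The 14 non-ATPase genes of the cap with a value comprise scaffold, ubiquitin-binding and deubiquitinating subunits as well as the base chaperones Psmd5, Psmd9 and Psmd10. Of these, 11 were positive and 3 negative, with a median of 0.039 and a range of -0.033 to 0.13. Psmd1, a large scaffold subunit of the base, read 0.31, -0.34, 0.39, 0.077, 0.33 and 0.024 on replicates 1 to 6. Only replicate 2 was negative, which left slide 1 at -0.017 against 0.23 and 0.18 on slides 2 and 3. The fitted ratio of Psmd1 was 0.13 ± 0.056 (SE, n = 6; limma unadjusted p = 0.0397, adjusted p = 0.268). Psmd4, a ubiquitin receptor, read 0.097, -0.082, 0.15, 0.14, 0.065 and 0.15, with the same array apart, and had a fitted ratio of 0.087 ± 0.045 (SE, n = 6; limma adjusted p = 0.378). Psmd14, the deubiquitinase of the lid, had a fitted ratio of 0.11 and slides at 0.14, 0.25 and -0.063. Psmd9 had 0.082 by its brighter probe and -0.044 by its dimmer probe. Psmd2 (0.053) and Psmd13 (0.065) were also positive. The other positive ratios, those of Psmd5, Psmd6, Psmd8, Psmd10 and Psmd12, were between 0.0036 and 0.045, and those of Psmd3 and Psmd7 were -0.025 and -0.011.

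The third negative value, that of Psmd11, did not measure its mRNA. That value is still counted among those of the 47 proteasome genes, the 20 cap genes and the 14 non-ATPase genes. The probe that stood for this gene lies on the strand opposite to it (mm9, chr11:80283343-80283402, minus strand; the gene is on the plus strand), and its signal was weak, at a mean log2 of 7.15. It is shown here because its strand decides what its value means.
Psmd11: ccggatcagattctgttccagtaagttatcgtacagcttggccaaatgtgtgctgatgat
The probe on the gene's own strand (mm9, chr11:80285272-80285331) was bright, at a mean log2 of 15.1, but was measured on only 1 array with VIP in Cy5. It read 0.034, 0.094, -0.016 and 0.15 on replicates 2, 4, 5 and 6. With 1 array of each orientation allowed, an alternative chosen after seeing the data, this probe gave 0.038 in place of -0.033 (limma adjusted p = 0.836). Of the 66 probes of the family whose strand could be checked against RefSeq, 2 were on the opposite strand, both named for Psmd11.

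The 4 activator genes had the widest range of fitted ratios of any role, from -0.23 to 0.10. Their probes differed in brightness, at mean log2 17.4 (Psme2), 16.4 (Psme1), 13.8 (Psme4) and 10.5 (Psme3). The brightest other genes of the family, Psmb10 (16.7), Psma2 (16.2), Psmb3 (16.2), Psmd3 (15.8), Psmb8 (15.7) and Psma5 (15.51), were negative too. Next came Psmb4 (15.46), which was positive, and some dimmer genes such as Psmg2 (10.8) were negative. A part of brightness in these signs was not tested. Psme1 and Psme2 code for the alpha and beta subunits of the PA28 ring, which caps the core mainly in the cytosol. Psme2 read 0.13, -0.70, 0.36, -0.36, 0.25 and -1.05 on replicates 1 to 6. The sign followed the dye on all 6 arrays, and the fitted dye effect, 0.47 on the log2 scale, was the largest among the proteasome genes. With it removed, 5 of 6 arrays were below 0, and only replicate 4, at 0.12, was above. The fitted ratio was -0.23 ± 0.075 (SE, n = 6; 95% interval -0.39 to -0.063; limma unadjusted p = 0.0114, adjusted p = 0.145). The slides differed, at -0.29, -0.00082 and -0.40. Without replicate 4 the ratio was -0.31 and passed the test (limma adjusted p = 0.032), and over all removals of 1 array it ranged from -0.31 to -0.14. A second Psme2 probe gave -0.19. Both are printed, since they lie apart on the transcript and read alike; the first is a contiguous stretch at chr14:56206335-56206394 and the second joins parts of chr14:56206927-56207124 across an intron (mm9, minus strand).
Psme2 brighter probe: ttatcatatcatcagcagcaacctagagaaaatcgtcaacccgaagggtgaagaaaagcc
Psme2 second probe: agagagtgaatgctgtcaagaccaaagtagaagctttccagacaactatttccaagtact
RefSeq also lists a near copy, Psme2b, whose transcripts these probes may not tell from those of Psme2.

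Psme1 had a smaller ratio, with slides closer together. It read -0.033, -0.15, -0.049, -0.13, 0.027 and -0.26 on replicates 1 to 6, and the slides read -0.090, -0.090 and -0.12. With the dye effect removed, 0 of 6 arrays were above 0, and the fitted ratio was -0.099 ± 0.041 (SE, n = 6; limma unadjusted p = 0.0338, adjusted p = 0.247). Its size depended on the normalisation: it was -0.049 from the scanner's own processed signals and -0.18 with median centring in place of loess (limma adjusted p = 0.654 and 0.369). Psme3 codes for the nuclear PA28 gamma ring. It read 0.18, -0.37, 0.17, -0.078, 0.24 and -0.34, which again followed the dye, and its fitted ratio was -0.033 ± 0.048 (SE, n = 6; limma adjusted p = 0.8). Psme4, which codes for the large single-chain activator PA200, had a ratio of the opposite sign. It read -0.15, 0.46, -0.17, 0.32, -0.29 and 0.44 on replicates 1 to 6, and after removal of the dye effect all 6 arrays were positive, from 0.016 to 0.16. The fitted ratio was 0.10 ± 0.042 (SE, n = 6; limma unadjusted p = 0.0347, adjusted p = 0.25). The other tested Psme4 probes also gave positive values, the lowest at 0.019, and the mean of its probes gave 0.056.

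**Figure D4:**
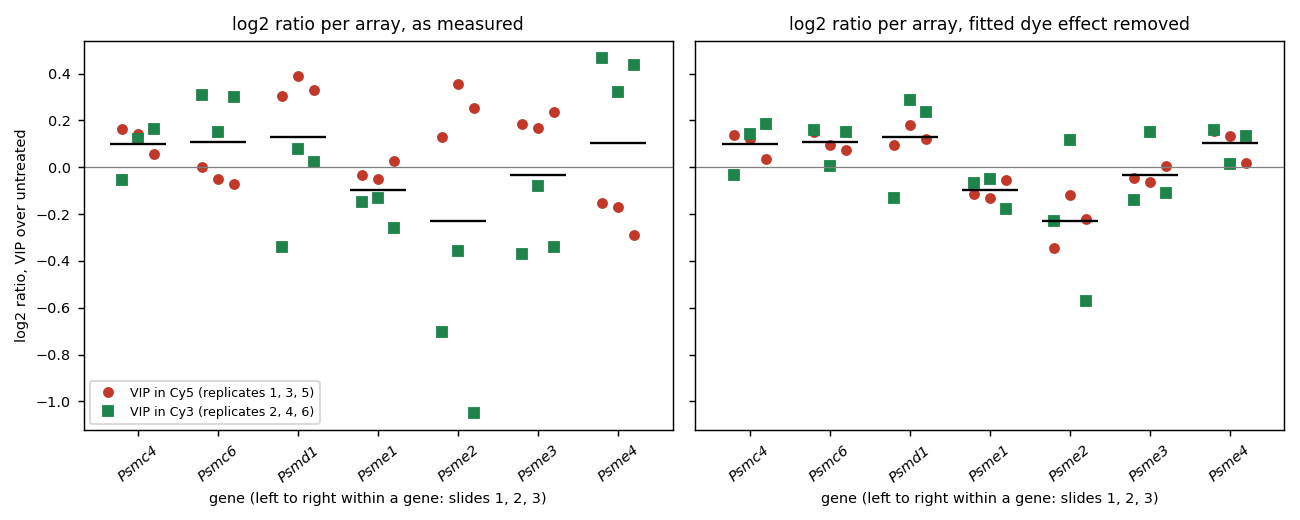
Log2 ratio of VIP over untreated (vertical axis) on each array for the 6 proteasome genes with an unadjusted p under 0.05 and Psme3, as measured (left) and with the fitted dye effect removed (right); red circles have VIP in Cy5, green squares VIP in Cy3, and black lines mark the fitted ratio. Psme2 spans -1.05 to 0.36 as measured, and Psme4 lies above 0 on all 6 arrays once the dye effect is removed.

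The inhibitor and assembly genes stayed near 0. Psmf1 (PI31), an inhibitor of the core in the test tube, read -0.14, -0.024, 0.067, 0.28, -0.093 and 0.096 on replicates 1 to 6, with a fitted ratio of 0.031 ± 0.050 (SE, n = 6; limma adjusted p = 0.832). The 4 chaperones Psmg1 to Psmg4, which help assemble the alpha ring, had a median of -0.056, and 3 of the 4 were negative. Psmg4 read -0.19, -0.079, -0.14, -0.094, -0.047 and 0.079, with replicate 6 alone above 0 and a fitted ratio of -0.079 ± 0.044 (SE, n = 6; limma adjusted p = 0.414). Psmg2 read 0.060, -0.055, -0.021, -0.25, -0.093 and -0.10, with a fitted ratio of -0.077 ± 0.044 (SE, n = 6; limma adjusted p = 0.431). Psmg1 (-0.035) and Psmg3 (0.033) had opposite signs. The medians of the 4 genes were negative on each slide, at -0.032, -0.070 and -0.034.

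Agreement among probes of a gene sets a scale for these values. For 14 proteasome genes more than 1 probe was tested, and in 9 of them all probes had the same sign. The median gap between the highest and lowest probe was 0.060, and the widest was 0.13, for Psmc2. The median size of the family's fitted ratios, 0.045, was below that median gap, as was that of all genes tested, 0.048. Of the 40 proteasome genes with values on all 3 slides, 11 were positive on every slide and 5 negative on every slide, against 18.9 and 19.9 percent of all genes with such values. The family's share was thus above that of all genes for positive slides and below it for negative slides. This difference was not tested.

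Around the proteasome, 26 genes for its regulators and substrate shuttles were tested, and 1 rose and 0 fell, which is 3.85 percent against 3.08 percent of all genes. That gene was Zfand2a, a stress-inducible zinc finger protein that associates with the cap (log2 ratio 0.25 ± 0.041 SE, n = 6; limma adjusted p = 0.011), positive on all 6 arrays at 0.40, 0.032, 0.32, 0.20, 0.37 and 0.15 for replicates 1 to 6. Its call did not hold in 8 of the 17 other ways of processing (limma adjusted p from 0.0548 to 1), while its ratio stayed between 0.23 and 0.28 in all of them. The median of these 26 genes, with the cap subunits Sem1 and Adrm1 among them, was 0.0063. Nfe2l1, the transcription factor that restores proteasome genes when proteolysis is impaired, was at -0.023 ± 0.049 (SE, n = 6).

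Of 16 tested genes for ubiquitin and its activation, limma called 0, and 2 had an unadjusted p under 0.05, which is 12.5 percent against 16.7 percent of all genes. The 2 of lowest p were Rps27a, a ubiquitin fusion with a ribosomal protein (-0.25 ± 0.086 SE, n = 6; limma adjusted p = 0.166), and Uba1, the main ubiquitin-activating enzyme (0.13 ± 0.055 SE, n = 6; limma adjusted p = 0.259). They had opposite signs, and the median of the list was -0.0063. Of 12 tested genes for peptide loading and its interferon regulators, some of which share induction by interferon with the immunoproteasome, limma called 0. Among them 1 had an unadjusted p under 0.05, which is 8.33 percent against 16.7 percent of all genes. The gene of lowest p was Tapbp (tapasin, which tethers class I molecules to the peptide transporter), at -0.13 ± 0.040 (SE, n = 6; limma adjusted p = 0.112) with slides at -0.12, -0.10 and -0.17. Irf1, a transcription factor of the interferon response, had -0.15 ± 0.089 (SE, n = 6; limma adjusted p = 0.463), most of it from slide 3 at -0.38. Of the 12, 3 were positive, where 47.1 percent of all genes were, and the median was -0.044.

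The stretch of 250 bases before the transcription start was searched, on both strands, in the RefSeq promoters (GRCm38.p6) of the 40 proteasome genes that had one. The cyclic AMP response element TGACGTCA was in 0 of the 40, against 1.77 percent of 27025 genes. The antioxidant element core TGACNNNGC, where N is any base, was in 5 of the 40, or 12.5 percent, against 11.5 percent of all genes. The gamma-activated element TTCNNNGAA was in 2, or 5.00 percent, against 8.13 percent. These windows show the antioxidant core in capitals in a gene of each part of the particle: Psmb5 of the core (chr14:54618014-54618062, minus strand), Psmc6 of the ATPase ring (chr14:45329577-45329625, plus strand, with the core read on the other strand) and the base chaperone Psmd9 (chr5:123228139-123228187, plus strand).
Psmb5: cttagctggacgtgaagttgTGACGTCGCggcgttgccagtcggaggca
Psmc6: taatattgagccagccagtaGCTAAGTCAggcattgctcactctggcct
Psmd9: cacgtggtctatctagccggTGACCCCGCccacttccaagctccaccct
The 3 genes had fitted ratios of -0.0039, 0.11 and 0.082, and the others with this core, Psmb6 and Psmd12, had -0.043 and 0.0036, so genes with the motif had both signs and none was called by limma.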

How the data were processed

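RNA (250 ng per channel, per the labels) was hybridised to Agilent two-colour arrays. Per the file headers, the deposited scanner files came from Agilent Feature Extraction 9.5.1.1 and hold intensity values; their probe coordinates are of mm9. The authors' deposited value table equals the scanner's log10 ratio with its sign turned on replicates 2, 4 and 6 (largest difference 4.77e-06). Mean signals were corrected with normexp (offset 50) against median background and loess-normalised within arrays, with control and outlier spots at weight 0, in limma 3.58.1 (R 4.3.3). Outlier spots (1.93 to 8.96 percent an array) were left out. Ratios were turned to VIP over untreated and fitted by limma with a dye term per probe, moderated, and adjusted by Benjamini-Hochberg over 19225 genes. A probe had to be well above background on 3 of 6 arrays in either treatment and measured on 2 arrays of each orientation; the brightest stood for its gene. The fit was tested on simulated data.

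Array values were given for any gene called by limma, the 6 catalytic subunits, Psme1 to Psme3 and the 2 genes of lowest p in each role; Psme4, Psmd11 and other examples were added after their values were seen. The members and lists were chosen with earlier results of these data known. The number of arrays limits the precision. Nothing beyond the labels says that the replicates came from separate pools, so p-values measure the spread between these arrays. Loess centres each array on its probes, so ratios are relative to the average gene. No exon annotation of mm9 was used here. Alternatives changed the dye term, signal, normalisation, offset, filter, probe choice, slide block, pairing and arrays.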

Additional observations from a re-analysis of the deposited data

Results flagged for a closer look

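Among the 48 genes with a value, 0 had an array far from the others by Dixon's criterion, and 2 role medians did; chance alone sets off that criterion in roughly 1 in 20 groups. With the dye effect removed, the median log2 ratio of the 19S cap was -0.045 on replicate 2, whereas the other 5 arrays lay between 0.055 and 0.096. The median of the 4 assembly chaperones was -0.16 on replicate 4, whereas the others lay between -0.050 and -0.0071.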

How the results depend on the processing

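The number of proteasome genes called stayed at 0 in every planned and added alternative but 1. Leaving out each replicate in turn gave 0 to 1 called, 0 to 1 lower and 0 higher; the call was Psme2 without replicate 4. With the slide as a fixed block its adjusted p was 0.0564. The 19S cap had 14 to 18 of 20 genes positive over all settings. Median centring without loess moved the median of the 20S core from -0.011 to -0.056 and turned that of the constitutive beta subunits to -0.030. The 20S core median was positive, at 0.0070, from the scanner's signals and the authors' table and at 0.00069 with the slide block, and over single removals it ranged from -0.014 to 0.010; that of the constitutive beta subunits ranged from -0.012 to 0.020. Other moves of role medians were smaller than their SD over arrays. Taking the 12 channels as unpaired (no replicate block) called 0 proteasome genes, and 4 of all 19225 genes.

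Ratios near 0 changed sign. Psmb8 turned to 0.00048 without the dye term and to 0.038 both from the signals as the scanner processed them and from the authors' deposited table. Over single removals Psmb5 ranged from -0.026 to 0.020 (0.012 without replicate 2), Psmf1 from -0.0093 to 0.066, Psmb7 from -0.021 to 0.082 and Psmb10 from -0.057 to 0.0092. Psmd11 turned to 0.038 on its own strand's probe. Psmb8 minus Psmb5 was -0.030 with the dye effect removed and -0.025 with median centring, and ranged from -0.048 to 0.12 over single removals; Psmb9 minus Psmb6 was -0.019 with median centring and ranged from -0.044 to 0.075; Psmb10 minus Psmb7 ranged from -0.080 to 0.036. No pair difference passed its exact permutation test in these. Psmb11 and Psmb2 had no value where too few of their arrays were kept. The cause of these changes was not tested.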
